A study of Homo sapiens with 4 samples.

Results

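Peaks of RNA recovered with HuR were examined over 8 genes of cell division: the cyclins CCNA2, CCNB1, CCND1 and CCND2, the kinase AURKA, and STMN1, MKI67 and TOP2A. HuR is the RNA-binding protein made by ELAVL1. The cells were the established human skin fibroblast line WS1, either unirradiated (0 Gy) or given 5 Gy of X-rays. Each dose had 1 library of RNA precipitated with HuR and 1 library with control immunoglobulin (IgG), which makes 4 libraries in all. The labels give no genotype change and no time between irradiation and harvest. The authors called peaks of HuR over IgG for each dose and deposited 1 peak list per dose on the build hg19. The genes were chosen by name with earlier results of these lists known, and their peaks were selected by overlap of at least 1 bp with the hg19 span of each gene. The members came to 30 of 47930 peaks at 0 Gy and 24 of 36216 peaks at 5 Gy. Without replicates, no p-value was computed, and each difference is between 2 lists.

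Cyclins activate cyclin-dependent kinases at set points of the cell cycle: D-type cyclins in G1, cyclin A2 in S phase and G2, and cyclin B1 at entry into mitosis. After DNA damage, p53 and its target p21 are known to stop the cycle and to lower transcription of many genes of G2 and mitosis. HuR binds U-rich and AU-rich stretches, mostly in introns and 3′ untranslated regions, and is known to stabilise several bound mRNAs, among them those of cyclin A2 and cyclin B1.

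The CCAAT box is the motif of the factor NF-Y in many promoters of cell-cycle genes. The choice of the genes did not use this motif. It did take genes of cell division, so the share with the motif is not independent of the choice. The RefSeq promoter table (GRCh38.p14, 250 bases before to 50 after each start) held entries for 5 of the 8 genes, namely CCNA2, CCNB1, STMN1, TOP2A and MKI67. CCAAT on either strand was present in 5 of their 7 entries, and in 34.6% of all 35116 promoters of that length. STMN1 had 3 entries, of which 1 held the motif, and the other genes had 1 entry each, all with it. The 120 bases before the start are shown for CCNA2 and CCNB1, the cyclins whose length under peaks at 5 Gy was the smallest share of that at 0 Gy, for MKI67, whose peaks kept their place, and for TOP2A, which had no peak. They are written 5′ to 3′ on the gene's strand, and capitals mark CCAAT or its reverse complement.
CCNA2, GRCh38.p14 chr4:121823884-121824003, minus strand: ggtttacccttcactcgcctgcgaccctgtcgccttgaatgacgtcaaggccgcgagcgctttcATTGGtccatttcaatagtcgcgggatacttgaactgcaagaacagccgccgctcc
CCNB1, GRCh38.p14 chr5:69167030-69167149, plus strand: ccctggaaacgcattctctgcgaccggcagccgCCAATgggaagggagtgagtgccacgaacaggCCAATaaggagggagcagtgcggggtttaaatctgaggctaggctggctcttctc
TOP2A, GRCh38.p14 chr17:40417897-40418016, minus strand: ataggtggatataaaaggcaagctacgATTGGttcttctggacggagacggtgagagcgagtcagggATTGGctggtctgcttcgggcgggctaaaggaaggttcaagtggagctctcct
MKI67, GRCh38.p14 chr10:128126424-128126543, minus strand: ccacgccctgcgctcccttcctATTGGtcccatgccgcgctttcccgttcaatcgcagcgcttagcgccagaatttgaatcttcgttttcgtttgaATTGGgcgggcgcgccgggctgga
The stretch of CCNA2 holds 1 match, and those of CCNB1, TOP2A and MKI67 hold 2 each. A match is a description of the letters, and these lists hold no measurement of transcription.

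Of the 8 genes, 7 had peaks at both doses, and TOP2A, the topoisomerase that untangles chromosomes, had none at either dose. The genes differed in what the 5 Gy list held. CCNA2, CCNB1 and AURKA together had 15 peaks over 16066 bp at 0 Gy and 8 peaks over 5850 bp at 5 Gy. The D-type cyclins CCND1 and CCND2 had 10 peaks at each dose, over 12347 bp at 0 Gy and 13769 bp at 5 Gy. STMN1, MKI67 and TOP2A together had 5 peaks over 7476 bp at 0 Gy and 6 peaks over 6345 bp at 5 Gy. The length under peaks at 5 Gy was therefore 36.4% of that at 0 Gy in the first group, 112% in the D-type cyclins and 84.9% in the last group, beside 91.7% over the whole lists. Within the first group, the length at 5 Gy was 57.4% of that at 0 Gy in CCNA2, 11.9% in CCNB1 and 49.4% in AURKA. The value of CCNA2 depends on a 0 Gy peak that lies mostly beyond the gene's end. Without that peak it was 90.0%, and the group value was not recomputed without it. The groups are 1 possible division by known role. MKI67, also a gene of mitosis, stood in the last group with 96.7%. The groups were drawn up with the peaks already seen, so the contrast between them is a description. In RNA from whole cultures, fewer cells carrying a transcript and less of it per cell cannot be told apart, and neither can RNA level and recovery with HuR, because expression libraries were not analysed here.

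**Figure D1:**
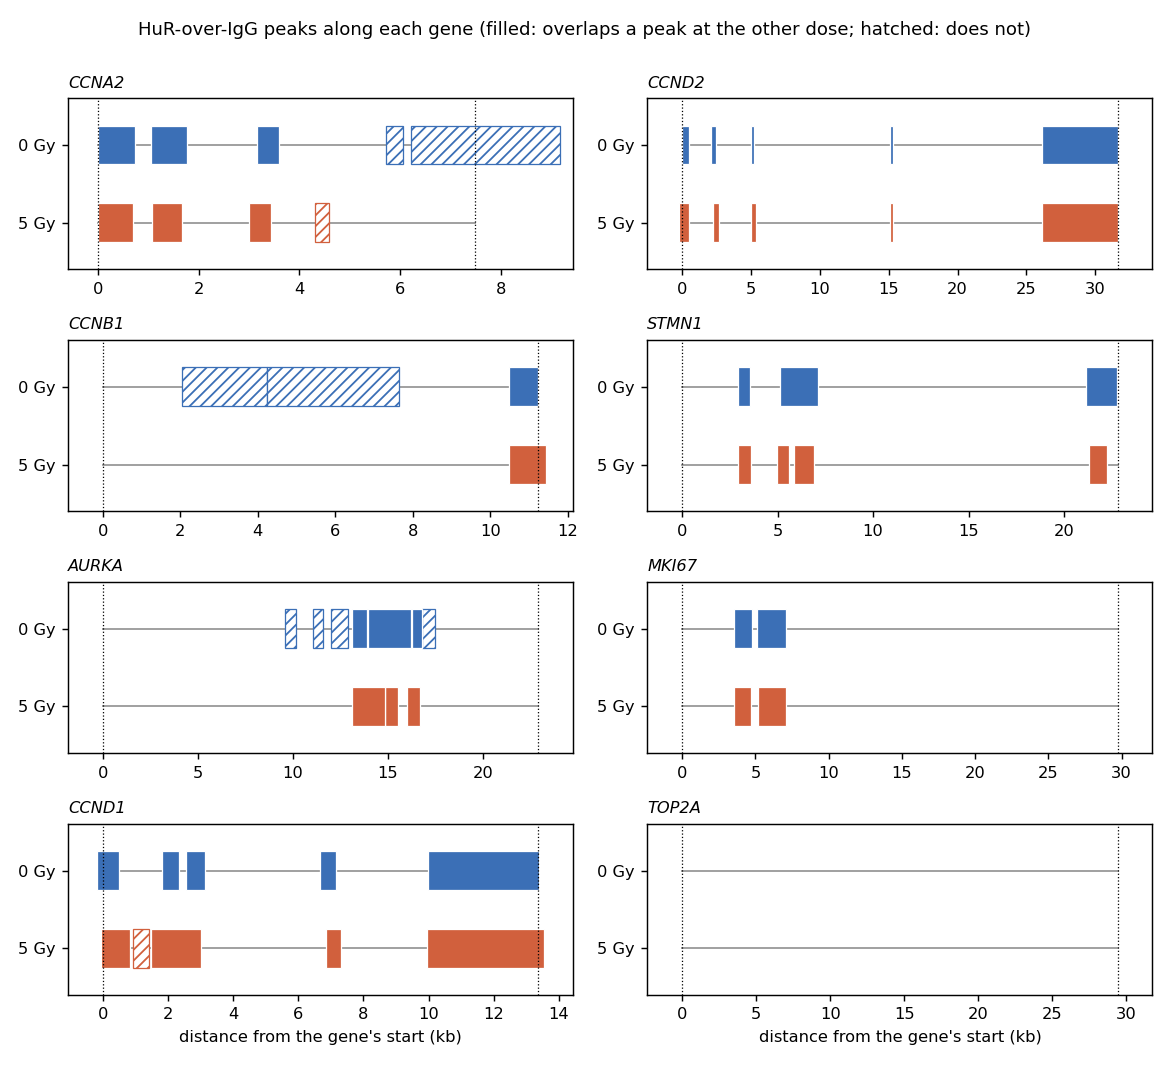
Peaks of the 0 Gy list (blue) and the 5 Gy list (orange) along each of the 8 genes, with the distance from the gene's start in kb on the x axis and dotted lines at the start and end. Filled bars overlap a peak of the other dose and hatched bars do not: CCNB1 has 3 peaks at 0 Gy and 1 at 5 Gy, CCND2 has 5 at each dose in nearly the same places, and TOP2A has none.

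**Figure D2:**
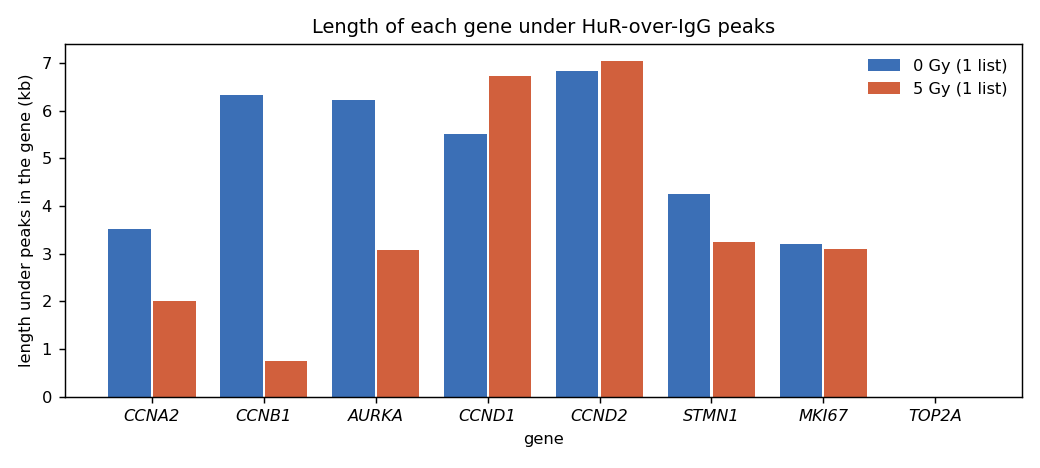
Length of each gene under peaks, in kb, at 0 Gy (blue) and 5 Gy (orange), 1 list per dose and so without error bars. The bar of CCNB1 is 6323 bp at 0 Gy and 752 bp at 5 Gy, while CCND1 has the larger bar at 5 Gy, with 6720 bp against 5514 bp.

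A peak is called matched when a peak of the other list overlaps it by at least 1 bp. Of the 30 peaks at 0 Gy, 22 were matched (73.3%, Wilson 95% interval 55.6 to 85.8), beside 58.1% of the whole 0 Gy list. Of the 24 peaks at 5 Gy, 22 were matched (91.7%, Wilson 95% interval 74.2 to 97.7), beside 73.0% of the whole 5 Gy list. The intervals cover counting error only and treat peaks of 1 gene as independent. The genes were chosen with these lists in view, so nothing is read from the distance to the background. The peaks of these genes also scored higher than most, with a median authors' score of 486.62 at 0 Gy and 361.97 at 5 Gy, beside 136.64 and 143.38 over the whole lists. The lowest member score was 62.32 at 0 Gy and 62.84 at 5 Gy, and the highest was 3100 at both. The lists start just below the lowest of these. At 3100 many peaks are tied, 2481 at 0 Gy and 2000 at 5 Gy, and some peaks of each list score higher.

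The score has the form of a log-transformed p-value and grows with read depth, which is unknown here. It therefore orders peaks within 1 list, and scores of the doses are given side by side. To set the doses against each other, a percentile was used among the 19750 pairs of a 0 Gy and a 5 Gy peak that each overlapped no further peak of the other list. Of the 30 member peaks at 0 Gy, 16 were in such pairs. The percentile was lower at 5 Gy in 8 of the 16. It was lower by at least 20 points in 5 of the 16, beside 12.8% of all pairs, and higher by at least 20 points in 0 of the 16, beside 12.7% of all pairs. Those shares cover pairs of every starting rank. Most member pairs ranked high at 0 Gy, where a fall has more room than a rise. From 94.2, the 0 Gy percentile of the end peaks of CCND1 and CCND2, no rise of 20 points is possible. Nothing is therefore read from the distance to these shares. The 5 lower pairs were 3 of CCNA2 and 2 of STMN1. A pair of CCND1 stood at the edge of that limit, at percentiles of 1.25 and 21.2.

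**Figure D3:**
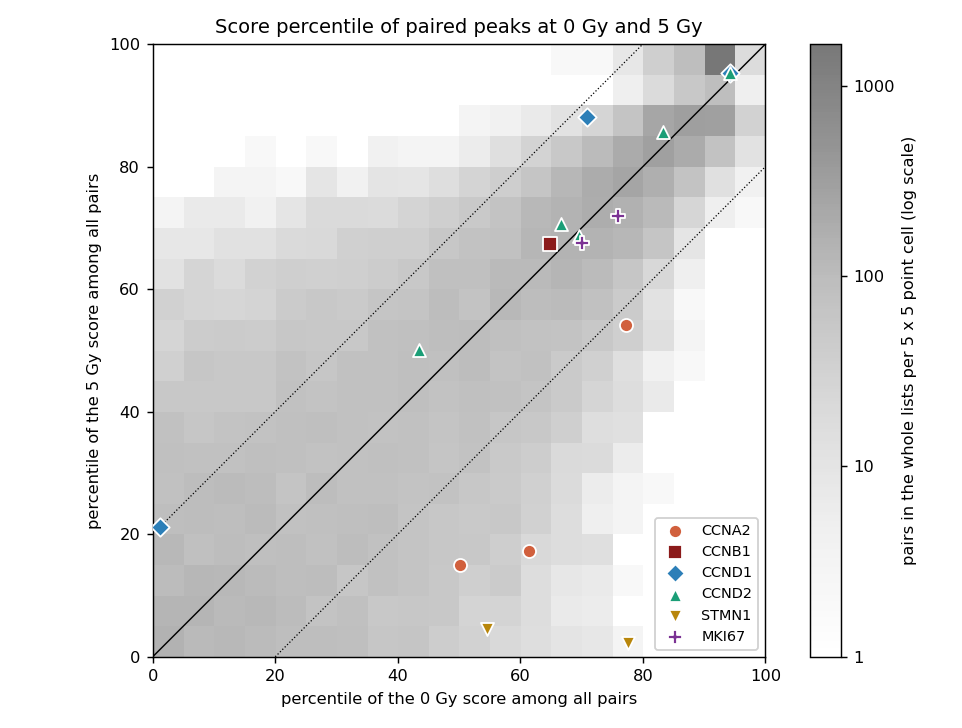
Percentile of the score among all 19750 pairs at 0 Gy (x axis) and at 5 Gy (y axis) for the 16 member pairs, over the density of all pairs in grey. The solid line marks equal percentiles and the dotted lines 20 points: 3 points of CCNA2 and 2 of STMN1 lie below the lower dotted line, and the points of CCND2 and MKI67 lie close to the solid line.

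CCNA2 encodes cyclin A2, which activates CDK2 and CDK1. Its span on chromosome 4 (122737599 to 122745088, minus strand) had 5 peaks over 46.9% of the gene at 0 Gy and 4 peaks over 26.9% at 5 Gy. The highest score at each dose belonged to the peak over the start of the gene. It lay at 122744347 to 122745095 at 0 Gy with a score of 1086.45, and at 122744383 to 122745096 at 5 Gy with a score of 244.76. The edges of these peaks were 36 and 1 bp apart, so the same stretch was called at both doses. Its percentile among pairs was 77.3 at 0 Gy and 54.1 at 5 Gy.

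The other paired peaks of CCNA2 also ranked lower at 5 Gy. The peak beginning 1.05 kb from the start scored 445.88 at 0 Gy and 88.67 at 5 Gy (percentiles 61.4 and 17.3). The peak beginning 3.15 kb from the start scored 288.67 and 83.75 (percentiles 50.2 and 14.9), with edges 163 and 158 bp apart. All 3 pairs thus ranked lower at 5 Gy, although they share their libraries and are not replicates.

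Near the end of CCNA2 the 0 Gy list had a peak of 2964 bp (122735906 to 122738869, score 914.12) with no match at 5 Gy. The nearest 5 Gy peak was 1632 bp away. Of this peak, 1271 bp lay inside CCNA2 and 1693 bp beyond its end, and in the RefSeq gene table EXOSC9, which encodes an exosome subunit, overlaps that end of CCNA2. The lists carry no strand, so RNA of CCNA2 and of EXOSC9 cannot be told apart there. Without this peak, CCNA2 had 2240 bp under peaks at 0 Gy against 2017 bp at 5 Gy, or 90.0%, against 57.4% with it. A 346 bp peak beside it (122739029 to 122739374, score 113.99) was also unmatched. At 5 Gy a 279 bp peak (122740502 to 122740780, score 184.95) had no match at 0 Gy.

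CCNB1 encodes cyclin B1, the partner of CDK1 at entry into mitosis. The gene, on chromosome 5 (68462837 to 68474070, plus strand), had 3 peaks over 56.3% of the gene at 0 Gy and 1 peak over 6.69% at 5 Gy. The peak at the end of the gene was present at both doses, at 68473327 to 68474055 without irradiation and 68473319 to 68474273 after 5 Gy. Its score was 527.37 at 0 Gy and 431.97 at 5 Gy, and its percentile among pairs was 64.8 and 67.4. The end of CCNB1 thus held its rank.

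The interior of CCNB1 differed. At 0 Gy, a 3414 bp peak (68467073 to 68470486, score 1012.22) lay 4.24 to 7.65 kb from the start, directly beside a 2180 bp peak with a score of 83.59. Neither had a match, and the nearest 5 Gy peak was 2832 bp from the first. Of the 9449 peaks in the whole 0 Gy list that scored 500 or more, 1.45% had no match at 5 Gy. Among the 15 such peaks in the genes described here, 2 had none, the interior peak of CCNB1 and the end peak of CCNA2. Of the 5866 that scored 1000 or more, 28 were unmatched, the peak of CCNB1 among them. That limit lies just below the score of the CCNB1 peak and above the 914.12 of the CCNA2 peak. Both limits were chosen with earlier results known, so nothing is read from either count. In the other direction, 0 of the 8 member peaks at 5 Gy that scored 500 or more were unmatched. Over the whole 5 Gy list, 31 of 7562 such peaks (0.410%) were unmatched. The RefSeq gene table lists a snoRNA, LOC124901203, within CCNB1. Its place on hg19 was not available, so its part in the CCNB1 peaks was not tested.

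AURKA encodes Aurora kinase A, which acts at centrosomes and the mitotic spindle. Its span on chromosome 20 (54944445 to 54967351, minus strand) had 7 peaks over 6232 bp at 0 Gy and 3 peaks over 3081 bp at 5 Gy. All of them lay in the middle of the gene, between 9.57 and 17.49 kb from the start of a span of 22907 bp. None reached the start or the end of the span at either dose.

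The highest score of AURKA at 0 Gy was 1056.90, for a 2253 bp peak (54951143 to 54953395). It lay against all 3 peaks of the 5 Gy list, whose scores were 291.97 (54952534 to 54954272), 136.19 and 113.61. With several overlaps per peak, AURKA had no pair and no percentile. Peaks at 54949862 to 54950541 (score 231.82) and 54954484 to 54955355 (score 232.56) had no match at 5 Gy, with the nearest 5 Gy peak 150 and 211 bp away. The remaining unmatched peaks scored 74.67 and 93.99 and lay nearest the start, so the 0 Gy peaks extended further on both sides. Just outside the start of AURKA, a peak scored 108.43 at 0 Gy and 85.23 at 5 Gy, at 95 and 84 bp from the span. It was not counted.

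**Figure D4:**
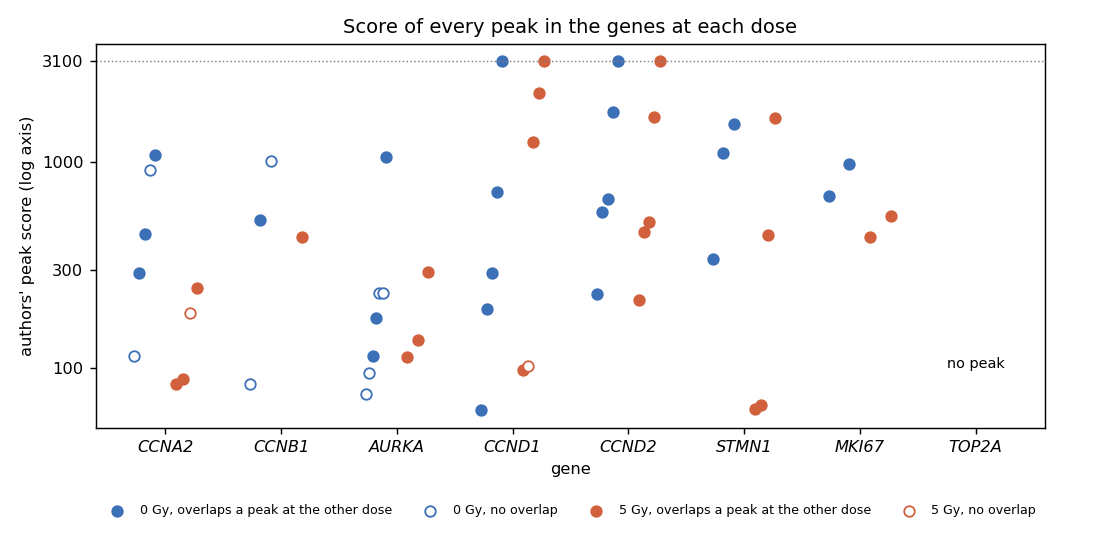
Authors' score of every peak in the 8 genes on a log axis, at 0 Gy (blue) and 5 Gy (orange), with filled points for peaks that overlap a peak of the other dose and open points for those that do not. The dotted line marks 3100: CCND1 and CCND2 each have a peak at 3100 at both doses, while the highest score of AURKA is 1056.90 at 0 Gy and 291.97 at 5 Gy.

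CCND1 encodes cyclin D1, the G1 cyclin that activates CDK4 and CDK6, and its mRNA has a long AU-rich 3′ untranslated region. Its span on chromosome 11 (69455873 to 69469242, plus strand) had 5 peaks at each dose, over 41.2% of the gene at 0 Gy and 50.3% at 5 Gy. The longest peak covered the end of the gene at both doses: 3407 bp at 0 Gy (69465856 to 69469262) and 3586 bp at 5 Gy (69465834 to 69469419). Both were tied at 3100, so no order between the doses can be read there.

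Toward the start of CCND1 the scores were higher at 5 Gy. The peak over the start scored 720.60 at 0 Gy and 2176.11 at 5 Gy, and its percentile among pairs was 70.8 and 88.1. Peaks of 528 and 592 bp at 0 Gy, with scores of 192.84 and 288.01, lay under 1 peak of 1533 bp at 5 Gy with a score of 1250.57. Between these, a 481 bp peak at 5 Gy (69456806 to 69457286, score 102.58) had no match, 392 bp from the nearest 0 Gy peak. The peak beginning 6.66 kb from the start scored 62.32 at 0 Gy, the lowest of all member peaks, and 97.75 at 5 Gy. The order of the doses in CCND1 was thus the opposite of that in CCNA2, within the same 2 lists.

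CCND2 encodes cyclin D2, which also partners CDK4 and CDK6. The gene, on chromosome 12 (4382902 to 4414522, plus strand), had the same layout at both doses, with 5 peaks each and every peak matched. The peak at the end measured 5510 bp at 0 Gy (4409019 to 4414528) and 5558 bp at 5 Gy (4409004 to 4414561), both tied at 3100. The overlap made up 99.1% of their joint length. These were the longest peaks of the 8 genes at each dose.

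The other peaks of CCND2 were short and differed little in rank. The peak at the start scored 1758.73 at 0 Gy and 1660.96 at 5 Gy, with percentiles of 83.2 and 85.7. The peak at 2.08 kb scored 574.74 and 510.77, and that at 4.97 kb 664.51 and 459.48. The peak at 15.09 kb scored 228.97 and 213.70. Every one of these scores was lower at 5 Gy, while the percentile differences ran from −0.81 to 6.73 points (5 Gy minus 0 Gy). The RefSeq gene table lists the antisense gene CCND2-AS1 across the start of CCND2. Its extent on hg19 was not available, and the peak lists carry no strand, so its part in the start peak was not tested.

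STMN1 encodes stathmin, a protein that destabilises microtubules. Its span on chromosome 1 (26210672 to 26233482, minus strand) had 3 peaks over 18.7% of the gene at 0 Gy and 4 peaks over 14.2% at 5 Gy, and every peak was matched. At the end of the gene, a 1632 bp peak at 0 Gy scored 1110.71, and the 941 bp peak inside it at 5 Gy scored 62.84, close to the lowest score in the list. Its percentile among pairs was 77.6 at 0 Gy and 2.21 at 5 Gy, the largest difference among the 16 member pairs.

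The peaks of STMN1 differed among themselves. The peak at 2.94 kb from the start scored 338.20 at 0 Gy and 65.96 at 5 Gy. The highest-scoring peak lay at 26226384 to 26228385 at 0 Gy with a score of 1541.05, and at 26226599 to 26227625 at 5 Gy with a score of 1639.33. A further 5 Gy peak of 606 bp (score 445.17) overlapped the same 0 Gy peak. With more than 1 overlap this stretch had no pair percentile. Its top score exceeded 90.9% of the whole list at 0 Gy and 90.7% at 5 Gy, so it stood high in both lists. The gene table places the pseudogenes SNRPFP2 and RPL39P7 and MIR3917 within STMN1, and the lncRNA LOC105376885 across its start. Whether any of them lies under these peaks was not tested.

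MKI67 encodes Ki-67, a coat protein of mitotic chromosomes and a common marker of dividing cells. The gene, on chromosome 10 (129894925 to 129924649, minus strand), had 2 peaks at each dose, over 10.8% of the gene at 0 Gy and 10.4% at 5 Gy. The highest-scoring peak lay at 129919869 to 129921143 at 0 Gy (score 987.33) and at 129919922 to 129921113 at 5 Gy (score 546.76). The other scored 686.09 and 435.03, and its edges at the 2 doses were 7 and 17 bp apart. Both peaks lay between 3.51 and 7.06 kb from the start of a span of 29725 bp, and none was called over the rest. Their percentiles among pairs differed by −4.05 and −2.46 points (5 Gy minus 0 Gy).

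TOP2A on chromosome 17 (38544773 to 38574202, minus strand) had no peak over its 29430 bp. The nearest peak was 30926 bp beyond the end of the gene at 0 Gy and 30888 bp at 5 Gy. The lists hold only peaks past the caller's threshold, so this shows no absence of TOP2A RNA or of its recovery with HuR.

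By the position of their peaks, the genes fell into different patterns. CCND1, CCND2, CCNB1 and STMN1 had a peak reaching to or close to the gene's end at 0 Gy, and CCNA2 had one running past it. In CCNA2, CCND1 and CCND2 a peak lay over the start or began within 0.02 kb of it at both doses. MKI67 and AURKA had peaks only in the interior. Exons, introns and untranslated regions were not assigned, since no hg19 annotation was used here.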

How the data were processed

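The submitters' processing notes name cutadapt 1.9.1, Bowtie2 2.2.4 and the build hg19. The authors deposited 1 MACS peak list per dose, each peak with a start, an end and a score; the list names carry 1e-06, a value like a p-value cutoff. For the MACS version and the depth of the 4 libraries, these sources give nothing. The members, their groups and all limits were chosen with earlier results of these data known.

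Peaks were joined to the hg19 spans given with the gene names. The lengths of these spans were 99.9% to 101% of those in the RefSeq gene table (GRCh38.p14), which served only to name overlapping genes and the part of the member they overlap. Strands came from general knowledge and equalled RefSeq's for the 5 genes in its promoter table. Starts are counted from 1. Matching required 1 bp of overlap and was checked on simulated data. For each gene and dose, the highest-scoring peak and every unmatched peak with a score of at least 100 are given by position. Percentiles use average ranks for ties. Python 3.11.15, numpy 2.4.6, scipy 1.17.1 and pandas 2.3.3 were used. Alternatives changed the gene interval, the score minimum, the list sizes, joining and the overlap. Planned lists of other cell-cycle genes and of cell type markers (fibroblast, keratinocyte, endothelial, melanocyte, leukocyte) needed hg19 positions and were not analysed, so the cell type was not checked.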

Additional observations from a re-analysis of the deposited data

How the results depend on the processing

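Of 31 recomputed values, 30 stayed near the reported one: within 1.5 times for counts and ratios, within the Wilson interval for shares. The exception was the number of peaks at 0 Gy, 19 in place of 30 with peaks of a list within 1 kb joined, beside 16 at 5 Gy. These limits are wide, and most alternatives reuse the same peaks. The lengths under peaks by gene group were not among the recomputed values, so the tally does not bear on that contrast. The number at 5 Gy as a percentage of that at 0 Gy (80.0%) ran from 72.0% with peaks wholly inside a gene to 85.7% with equal list sizes. Over the whole lists as deposited it was 75.6%, which belongs beside the 80.0% only. With equal list sizes the whole-list percentage is fixed in advance, and for the other settings it was not computed. By covered length the percentage was 72.3% in the genes, beside 91.7% over the whole lists. The matched share of 0 Gy peaks ran from 60.0% with 50% of each peak overlapping to 75.9% without the end peak of CCNA2, an alternative added after the data were seen. The matched share of 5 Gy peaks (91.7%) ran from 75.0% with 50% of each peak overlapping to 92.0% with the gene interval widened by 1 kb. Setting scores above 3100 to the tie changed no percentile order. By highest score, 4 genes were lower at 5 Gy, and by summed peak length 5. No paired analysis was possible because every group is a lone library. Unknown depth limits every comparison of scores and of peak numbers.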
